A study of Mus musculus with 2 samples.

Results

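The let-7 genes b, d, e, g and i, each encoding a mature microRNA with 1 genomic locus, and the related gene Mir98 were described in hippocampus of 10-day-old mice. They were taken by symbol, after matching the Ensembl identifiers of the count files to GENCODE M21, and make up 6 of 2202 microRNA genes measured. MicroRNA sequencing of total RNA gave 2 libraries of 1 group: male B6CASTF1/J mice, a cross of C57BL/6J with CAST/EiJ in its first generation, at 10 days, with no treatment, genotype or comparison group in the labels. Each library is labelled with 3 males and with layer of hippocampus tissue as its source, the layer not being named. The animal numbers differ between the libraries while the donor identifier is the same, so an SD over both measures how far these samples lay apart, for which technical sources may count too. The microRNA genes drew 4815761 counts in replicate 1 and 3495401 in replicate 2. Levels are given in CPM, counts per 1000000 counts on genes. Intervals and limits cover counting error only, and a limit for a gene without counts is 3 counts, or 0.623 CPM in replicate 1 and 0.858 CPM in replicate 2.

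MicroRNAs are cut from hairpin precursors by Drosha and Dicer, and the mature strand guides Argonaute to transcripts that pair with its seed, the bases 2 to 8. Let-7 microRNAs accumulate as cells leave proliferation and differentiate, and repress growth genes such as Lin28, Hmga2 and Ras genes. LIN28 in turn binds let-7 precursors and blocks their maturation, so that in brain development LIN28 falls as mature let-7 rises. Mir98 is a let-7 family member under another name. Each count covers a whole hairpin gene, so products of the 5′ and 3′ arms were not separated here.

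The 5′ mature sequences are shown because they define the family and set how far its genes can be told apart by reads. All 6 were found in the RefSeq table (GRCm38.p6), and capitals mark the seed.

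let-7b-5p: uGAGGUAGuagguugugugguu
let-7i-5p: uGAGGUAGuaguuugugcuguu
let-7g-5p: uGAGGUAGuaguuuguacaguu
let-7d-5p: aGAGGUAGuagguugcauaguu
let-7e-5p: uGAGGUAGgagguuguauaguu
miR-98-5p: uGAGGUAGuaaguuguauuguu

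The seed was the same in all 6, and 14 of the 22 positions did not vary among them. Substitutions are given against let-7a-5p, with its base first and positions counted from 1 at the 5′ end. Let-7e-5p lay nearest, with U9G as its single change, and let-7i-5p lay farthest, with G12U, A17G, U18C and A19U. Let-7b-5p carried A17G and A19G, let-7g-5p carried G12U and U18C, and miR-98-5p carried G11A and A19U. Let-7d-5p carried U1A and U16C and was the member with a first base other than U. Since all 6 mature sequences have 22 bases, their counts were compared without a length scale.

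Similarity to other genes bears on the assignment of reads. No member shared 20 consecutive bases with another microRNA gene, in contrast to all 6 of the let-7 a, c and f genes. Member reads of full length therefore have a single exact match among the microRNA genes. The longest run that a member's 5′ arm had in common with any other microRNA hairpin was 17 bases for let-7g (with Mir3962, which had 2 counts in replicate 1 and 1 in replicate 2). It was 16 bases for let-7b, let-7i and let-7e, 14 for let-7d and 10 for miR-98. By single-base differences the distances were small: let-7b-5p and let-7c-5p differed at 1 position (G17A, from b to c), and let-7e-5p and let-7a-5p at 1 (G9U, from e to a). Whether reads with a sequencing error or an untemplated base were assigned to a neighbour of this kind was not tested. Reads that fit several places were counted by the authors in a separate total.

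The 6 genes together held 1123237 counts in replicate 1, or 23.3% of counts on genes (95% Clopper-Pearson interval 23.29 to 23.36). In replicate 2 they held 917182 counts, or 26.2% (26.19 to 26.29). The mean share was 24.8% ± 2.06 (SD, n = 2), held by 6 of 2202 genes. When all reads of a library were the denominator, including those unmapped or fitting several places, the share was 9.08% in both libraries. In bulk tissue a share of this kind does not separate how many cells of a type were present from how much RNA each held.

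**Figure D1:**
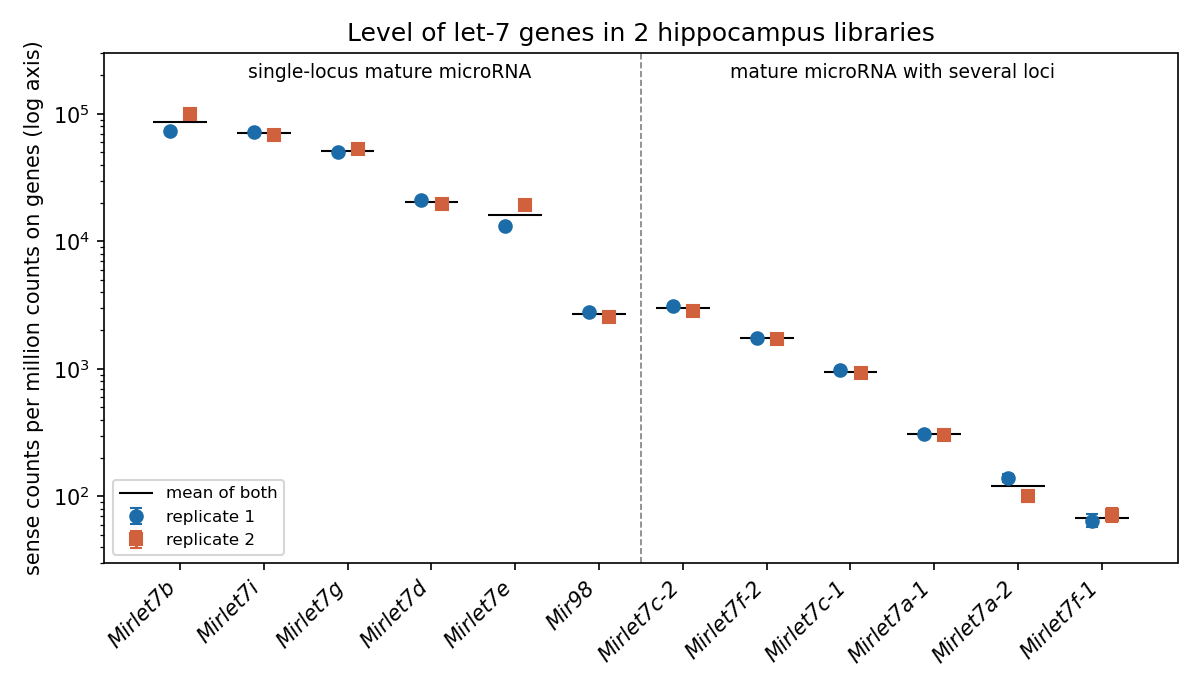
Level of 12 let-7 family genes in CPM (log axis) in replicate 1 (circles) and replicate 2 (squares), with 95% Clopper-Pearson intervals, mostly smaller than the symbols, and the mean of both as a line. The 6 genes left of the dashed line are those described here; Mirlet7b, Mirlet7i and Mirlet7g lie at 50277 CPM or above in both libraries, and Mir98 lies at 2795 CPM or below.

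Mirlet7b, Mirlet7i and Mirlet7g formed the upper part of the order and held 19.6% of counts in replicate 1 and 22.1% in replicate 2. Mirlet7b (chr15:85707319-85707403, mm10, plus strand), in an exon of the noncoding gene Lncppara, had 73844 CPM in replicate 1 against 99739 CPM in replicate 2. Mirlet7i (chr10:122985640-122985724, minus strand), which has no host gene on its strand, had 72277 and 68484 CPM. Mirlet7g (chr9:106178840-106178927, plus strand), in an intron of Wdr82, a subunit of histone methyltransferase complexes, had 50277 and 52865 CPM. In replicate 1 Mirlet7b and Mirlet7i were nearly level, and in replicate 2 Mirlet7b was above Mirlet7i. Ranks among all genes are by the reads assigned to 1 gene, since the 1084 of 2202 genes that share 20 bases with another gene can lack reads that fit several places. On these counts Mirlet7b ranked 3 in replicate 1 and 1 in replicate 2, Mirlet7i ranked 4 and 2, and Mirlet7g ranked 5 in both.

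Mirlet7d and Mirlet7e lay lower, and in single libraries the upper genes were 2.40 to 5.64 times as abundant. Mirlet7d (chr13:48536012-48536114, minus strand), in an exon of the noncoding gene 6720427I07Rik, had 20958 and 19618 CPM in replicates 1 and 2. Mirlet7e (chr17:17830352-17830444, plus strand), in an intron of the sperm gene Spaca6, had 13090 and 19129 CPM. The replicate 1 value of Mirlet7e was the low one, and in replicate 2 it came close to Mirlet7d.

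Mir98 stood apart at the lower end. This gene (chrX:151913214-151913321, plus strand) lies in an intron of the ubiquitin ligase gene Huwe1 and had 2795 CPM in replicate 1 against 2562 CPM in replicate 2. Its rank among all genes was 63 and 67. Mirlet7b was 26.4 times as abundant in replicate 1 and 38.9 times in replicate 2, and even Mirlet7e was 4.68 and 7.47 times as abundant. Whether different microRNAs were captured equally well in the libraries was not analysed, and the ratios compare read counts.

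The order b, i, g, d, e, 98 was the same in both libraries: all 15 pairs of genes kept their direction, and for no pair did the ranges over the libraries overlap. With 2 libraries an exact sign-flip test reaches p = 0.5 at best, so no pair was called. For 13 pairs the difference of the means was larger than the larger of both SDs. The exceptions were Mirlet7b and Mirlet7i, whose means differed by 16411 CPM against an SD of 18311, and Mirlet7d and Mirlet7e, whose means differed by 4178 CPM against an SD of 4270. In single libraries, Mirlet7b was 1.02 times Mirlet7i in replicate 1 and 1.46 times in replicate 2. Mirlet7d was 1.60 times Mirlet7e in replicate 1 and 1.03 times in replicate 2. Of the other neighbours in the order, Mirlet7i was 1.44 and 1.30 times Mirlet7g, and Mirlet7g was 2.40 and 2.69 times Mirlet7d.

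The spread over the libraries was not alike in the 6 genes. With library totals, the coefficients of variation of Mirlet7i, Mirlet7g, Mirlet7d and Mir98 over both libraries were 3.81%, 3.55%, 4.67% and 6.17%. Those of Mirlet7b and Mirlet7e were 21.1% and 26.5%. The contrast depended on the scaling. With TMM sizes (rescaled library totals) the SD rose from 2682 to 5636 for Mirlet7i, 948 to 1799 for Mirlet7d and 165 to 278 for Mir98. It fell from 18311 to 14678 for Mirlet7b, 4270 to 3596 for Mirlet7e and 1830 to 333 for Mirlet7g. Under DESeq2 size factors the log2 ratio of replicate 2 over replicate 1 was 0.27 for Mirlet7b and 0.38 for Mirlet7e. The ratios of Mirlet7i, Mirlet7d and Mir98 were then -0.24, -0.26 and -0.29, and that of Mirlet7g was -0.09. In size, Mirlet7b did not stand apart from Mirlet7i, Mirlet7d and Mir98 under these factors. The common biological coefficient of variation, estimated in edgeR over 427 genes with at least 10 counts in each library, was 38.6%. It uses TMM sizes and sets counting error apart, so it is not the same measure as the coefficients of the 6 genes. With library totals, the sum of Mirlet7g and Mirlet7i, whose 5′ sequences share the changes G12U and U18C, was 12.3% in replicate 1 and 12.1% in replicate 2. With TMM sizes both genes had log2 ratios below 0, at -0.01 for Mirlet7g and -0.16 for Mirlet7i, so this closeness depended on the scaling too. Of the counts of the 6 genes, Mirlet7b took 31.7% in replicate 1 and 38.0% in replicate 2, and Mirlet7i took 31.0% and 26.1%.

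The libraries were then compared gene by gene with an exact binomial test given the library totals, adjusted by Benjamini-Hochberg over 540 genes with at least 10 counts. A call needed both an adjusted p below 0.05 and a ratio of 2-fold or more in either direction, a log2 ratio past 1 in size. None of the 6 genes was called, where 18.7% of all tested genes were. By the adjusted p alone 6 of 6 passed, as did 55.7% of all tested genes, and 6 had an unadjusted p below 0.05. The test holds counting error only and compares these libraries, not conditions. Over the 6 genes the absolute log2 ratio had a median of 0.11 with library totals, beside 0.54 over all tested genes. The tested genes reach down to 10 counts over both libraries, while each of the 6 had at least 8954 in either. Genes with few counts have wider counting error, and the tested genes were not matched to the 6 in level.

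**Figure D2:**
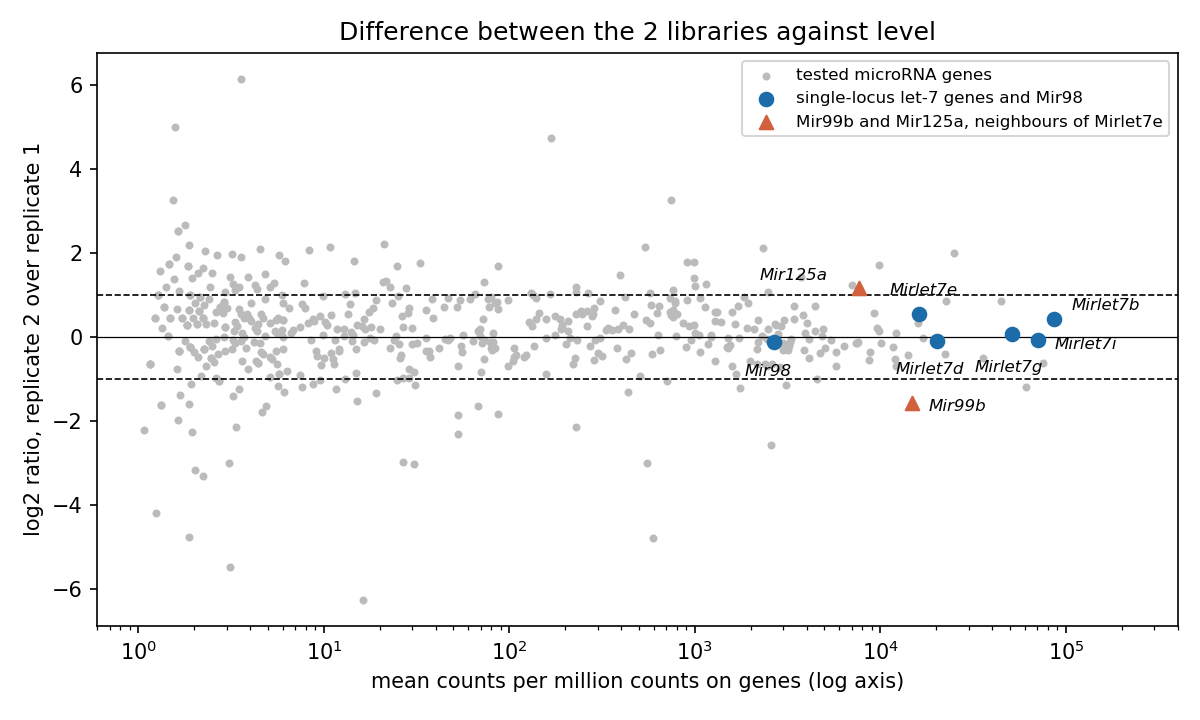
Log2 ratio of replicate 2 over replicate 1 against mean CPM (log axis) for 540 tested genes (grey), the 6 genes described here (blue) and Mir99b and Mir125a (orange triangles); dashed lines mark a log2 ratio of 1 in either direction. The 6 genes lie between -0.13 and 0.55, inside the dashed lines, and both triangles lie outside.

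Mirlet7e had the highest log2 ratio of replicate 2 over replicate 1, 0.55 (95% interval 0.53 to 0.56), and 50.7% of tested genes had a smaller absolute ratio. Mirlet7b followed at 0.43 (0.43 to 0.44), with 41.9% of tested genes below it in absolute ratio. The p-values of both were too small to be written as a number other than 0. With library totals, the remaining 4 genes lay within 0.13 of 0. Mirlet7g had 0.07 (adjusted p = 1.89e-58 by the exact binomial test), Mirlet7i -0.08 (4.71e-91), Mirlet7d -0.10 (4.02e-40) and Mir98 -0.13 (4.37e-10). No more than 12.4% of tested genes had a smaller absolute ratio than any of these 4. The sign for Mirlet7g depended on the scaling, at -0.01 under TMM sizes and -0.09 under DESeq2 size factors, and the other 5 genes kept theirs. The median log2 ratio of all tested genes, 0.17 with library totals, was 0.09 under TMM and 0.01 under DESeq2 factors.

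Some markers of other cells differed between the same libraries. Over all 540 tested genes, 39 were called lower and 62 higher in replicate 2. The 3 red blood cell microRNAs summed to 0.123% of counts in replicate 1 and 0.00764% in replicate 2, none was at 0, and 2 of 3 were called lower in replicate 2. The 7 choroid plexus and ciliated cell microRNAs summed to 0.258% and 0.533%, none was at 0, and 3 of the 6 tested were called higher in replicate 2. Their part in the higher level of Mirlet7b and Mirlet7e in replicate 2 was not tested. As a check of the tissue label, all 15 brain microRNA genes had counts and summed to 2.39% and 2.87%, although 12 of them share bases with other genes. Only 13 of the 15 had at least 10 counts over both libraries, and of these 1 was called higher and 1 lower in replicate 2. The 8 liver and muscle genes summed to 0.0148% and 0.00704%, with Mir1a-1, Mir1a-2, Mir133a-1 and Mir133a-2 at 0. Of these 8, 4 share bases with other genes and can lack reads that fit several places, so a 0 need not mean absence. Among the 3 tested of this list, 1 was called lower in replicate 2. No marker of hippocampus against other brain regions was among the lists.

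Of the 6 genes, 4 lie in runs with other microRNA genes on the same strand, at most 10000 bases apart, and Mirlet7g and Mirlet7i stand alone. Genes of such a run can come from 1 primary transcript, which is then cut into its hairpins. In 3 of the 4 runs the partners are let-7 genes with copies elsewhere in the genome, and their counts lack the reads that fit several places, so those ratios can be too high.

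Mirlet7e is the member whose partners, Mir99b and Mir125a, share no 20 consecutive bases with another microRNA gene. Mir99b lies 94 bases before Mirlet7e and Mir125a lies 367 bases after it. Mir125a represses Lin28, as let-7 does, and Mir99b belongs to the miR-99 and miR-100 family. Mir99b was called lower in replicate 2, where it had 7479 CPM against 22132 CPM in replicate 1 (log2 ratio -1.57). Mir125a was called higher, at 10636 CPM in replicate 2 against 4772 CPM (log2 ratio 1.16). Mirlet7e, which was not called, lay between these at 0.55. Mirlet7e was 0.591 times as abundant as Mir99b in replicate 1 and 2.56 times in replicate 2, and 2.74 and 1.80 times as abundant as Mir125a. The partners differed between the libraries in opposite directions, so Mir99b was the highest of the run in replicate 1 and the lowest in replicate 2. For Mir99b and Mir125a the adjusted p of the exact binomial test was too small to be written as a number other than 0.

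Mirlet7b lies 621 bases after Mirlet7c-2 within Lncppara. Mirlet7c-2 had 3119 and 2837 CPM in replicates 1 and 2, so Mirlet7b was 23.7 and 35.2 times as abundant. The log2 ratio of Mirlet7c-2 was -0.14, against 0.43 for Mirlet7b. Mirlet7d is the last of a run of 3 and lies 1714 bases after Mirlet7f-1. Mirlet7a-1, the first of the run, had 309.8 and 305.5 CPM, so Mirlet7d was 67.6 and 64.2 times as abundant. Mirlet7f-1 had 64.6 and 71.8 CPM, and Mirlet7d was 325 and 273 times as abundant.

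Mir98 and Mirlet7f-2 lie 785 bases apart in Huwe1 and had levels of the same order. Mirlet7f-2 had 1746 and 1730 CPM in replicates 1 and 2. Mir98 was 1.60 and 1.48 times as abundant, the smallest ratio among the members with a let-7 partner. The log2 ratio of Mirlet7f-2 between libraries was -0.01 (adjusted p = 0.679 by the exact binomial test).

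**Figure D3:**
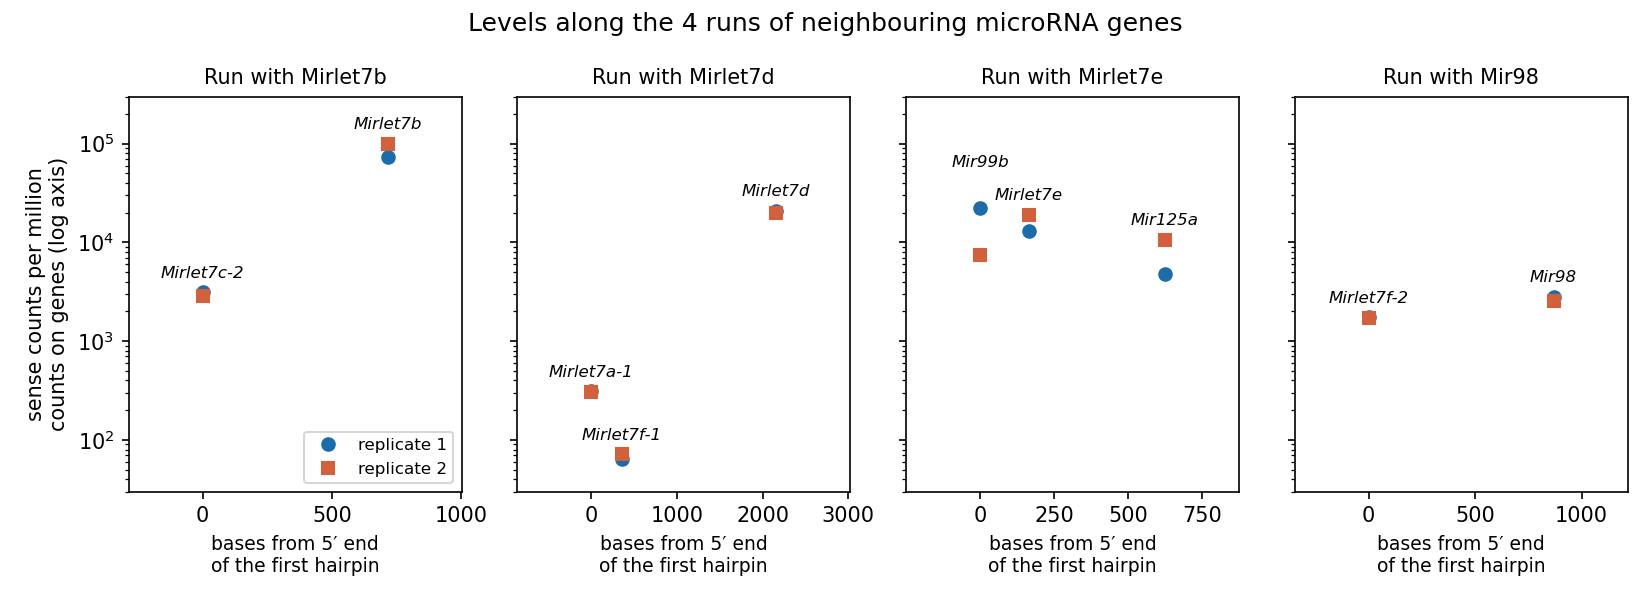
CPM (log axis) of each microRNA gene in the 4 runs that hold Mirlet7b, Mirlet7d, Mirlet7e and Mir98, against the distance in bases from the 5′ end of the first hairpin, for replicate 1 (circles) and replicate 2 (squares). Circles and squares coincide or nearly so in the runs of Mirlet7d and Mir98, and lie apart at Mirlet7b and at all 3 genes of the Mirlet7e run.

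Set against 12 let-7 family genes, the 6 genes held 97.3% of their counts in replicate 1 and 97.8% in replicate 2. That is 36.7 and 43.9 times the counts of the other 6 together. Those genes, Mirlet7a-1, Mirlet7a-2, Mirlet7c-1, Mirlet7c-2, Mirlet7f-1 and Mirlet7f-2, held 0.636% of counts on genes in replicate 1 and 0.597% in replicate 2. Reads fitting several places made up 37.7% and 39.8% of all reads, were not split by gene, and are outside these ratios, so they do not show how the mature sequences compare in the tissue. Mirlet7c-2 lay above Mir98 in both libraries even so. Beside the let-7 genes, 2 further genes of the RefSeq table carried the let-7 seed. Mir7k, which encodes let-7k, had 4 counts in replicate 1 and 1 in replicate 2. It was left out of the 12 genes, as was Mir7j, which had 70 counts in replicate 1 and 61 in replicate 2. Mir1961 had 0 counts in both, which allows a level up to the limits given above.

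The stretch between the 5′ and 3′ arms of the 5 let-7 genes is shown because LIN28 is known to bind there, its zinc fingers to GGAG and its cold shock domain to letters that include UGAU. Capitals mark matches to GGAG or UGAU, on the sense strand only, since the precursor is RNA.

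Mirlet7b: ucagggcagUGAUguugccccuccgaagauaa
Mirlet7i: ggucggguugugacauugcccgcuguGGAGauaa
Mirlet7g: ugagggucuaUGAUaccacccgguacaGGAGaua
Mirlet7d: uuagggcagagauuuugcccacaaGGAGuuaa
Mirlet7e: gaggaagacacccgaGGAGauca

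Of these 5, the stretches of Mirlet7i, Mirlet7g, Mirlet7d and Mirlet7e held GGAG, 3 or 4 bases before the 3′ arm, and that of Mirlet7b did not. UGAU was found in Mirlet7b and Mirlet7g. Of 644 hairpins in the RefSeq table with both arms given, let-7 genes included, 8.07% held GGAG between the arms and 6.06% held UGAU. Among the 52 of these with a stretch of 23 to 34 bases, as in the 5 genes, the shares were 25.0% and 11.5%. Let-7 genes make up a large part of these shares. The 13 stretches with GGAG included 4 of the 5 genes and 4 of the let-7 a, c and f genes. The 6 with UGAU included 2 and 1. Mirlet7e had a second GGAG, inside its 5′ mature sequence, where U9G lies. A match describes letters only, and LIN28 was not measured in these files.

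Other microRNAs known to repress Lin28 were measured beside the let-7 genes. The list held 12 genes of the miR-125, miR-9 and miR-30 families, and its assigned reads summed to 2.38% of counts in replicate 1 and 2.86% in replicate 2. For 7 of the 12, which share bases with other genes, reads that fit several places can be missing. Such reads are outside the denominator as well, so the summed counts are lower bounds and the shares need not be. Neither was ranked against the let-7 genes. Mir125a was called higher in replicate 2, and none of the other 11 was called in either direction, where 18.7% of all tested genes were called. The median log2 ratio of the list was 0.23, beside 0.17 over all tested genes. Mir30d, which shares no 20 bases with another gene, had 10544 and 9502 CPM in replicates 1 and 2. Mir125b-1 had 1766 and 2050 CPM, and Mir9-3 had 86.2 and 59.5 CPM, both genes being among the 7.

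By closeness in level, the gene outside the family most like each member was found over the 2 libraries, as the smallest distance in log2(CPM + 1) among 528 genes. Mir99a was nearest to both Mirlet7b (0.80) and Mirlet7i (0.39), and Mir139 to Mirlet7g (0.67). Mir149 was nearest to Mirlet7d (0.28), Mir433 to Mirlet7e (0.15) and Mir337 to Mir98 (0.17). Mir99a had 91288 CPM in replicate 1 against 59747 CPM in replicate 2, a log2 ratio of -0.61 beside -0.08 for Mirlet7i.

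The strand columns gave a check on these genes. Reads on the opposite strand numbered 3 for Mirlet7b and 1 for Mir98 in replicate 1, and 0 in all other cases. For Mirlet7e the choice of column decided whether it was detected: 63040 sense counts in replicate 1 and 66865 in replicate 2 became 0 and 0 in the column without regard to strand. GENCODE M21 annotates a second microRNA gene, Gm25927 (chr17:17830343-17830459, minus strand), over the whole Mirlet7e hairpin. That gene had 0 sense counts in both libraries. Its opposite-strand counts, 63040 and 66865, are the sense reads of Mirlet7e counted from the other strand, so their equality follows from the annotation. Reads set aside as ambiguous numbered 281108 in replicate 1 and 212068 in replicate 2 without regard to strand, and 0 in the sense column of both. They were not split by gene. Of 727 genes with sense counts in replicate 1, 32 had 0 unstranded counts, and Mirlet7e held 30.6% of their sense counts. In replicate 2 these were 33 of 719 genes and 38.0%.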

How the data were processed

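The authors deposited raw read counts per microRNA gene, 1 file per library, with 3 columns (1 without regard to strand, then 1 a strand) and 4 lines of totals. Genome mm10 and annotation GENCODE M21 were used, per the notes the submitters deposited, and each file came from its own library's reads. Aligner, counter, trimming, versions and the sense column: not given in the sources used here. Column 3 was used, which holds the larger stranded total. Library sizes exclude the lines of totals.

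Identifiers, positions, hosts and hairpins came from GENCODE M21 (GRCm38), and mature sequences from RefSeq (GRCm38.p6). A host gene contains the whole hairpin on the same strand. Log2 ratios had 0.5 counts added. With 1 group of 2 libraries there was no contrast for edgeR's quasi-likelihood test. The members, lists and the rule for named genes (the 6 genes, other let-7 and seed-sharing genes, run partners, the Lin28 list and the nearest gene in level) were chosen with earlier results of these data known. Mir3962, Gm25927 and genes named for their rank or at 0 in a list were named after their values were seen. Software was Python 3.11.15, SciPy 1.17.1, pandas 2.3.3, numpy 2.4.6, matplotlib 3.10.9, R 4.3.3, edgeR 4.0.16 and DESeq2 1.42.0. The stretch between the arms of Mir98 is not reported here.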

Additional observations from a re-analysis of the deposited data

How the results depend on the processing

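None of the 6 genes was called with TMM sizes, DESeq2 size factors, at least 1 count in place of 10, unstranded counts (5 genes, Mirlet7e being at 0), genes with copies left out or a pseudocount of 1. Without the minimum of the ratio 6 were called, and the count over all genes went from 101 to 301. It ranged from 90 to 111 under the other alternatives, and its share higher in replicate 2, 61.4%, was 52.1% under TMM and 45.5% under DESeq2 factors. The log2 ratio of Mirlet7g reversed to -0.013 with TMM sizes and to -0.094 under DESeq2 factors. The summed share, 24.8%, was 9.08% of all reads, 27.6% with genes with copies left out of the total, and 23.3% to 26.2% with either replicate left out. The first 2 follow from the size of the denominator. The level of Mirlet7e was 0 with unstranded counts. The order was kept in both libraries for 15 pairs with unstranded counts too, with Mirlet7e then below Mir98. The coefficient of variation was 36.6% when each library had to hold 100 counts or more of a gene. There were 2 libraries, and the smallest count of a member was 8954. No paired analysis was possible because there is 1 group.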
